A study of Mus musculus with 8 samples.

Results

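The 32 genes described here encode the sarcomere, calcium handling, pacemaking and natriuretic peptide proteins of the heart muscle cell, the cardiomyocyte. They were chosen by name, and all 32 had a row in the deposited table of 55421 genes. Poly-A RNA-seq was done on the vagal region, at the level of somites 1 to 7, dissected from E9.5 (embryonic day 9.5) mouse embryos. Homozygous Rdh10 trex/trex mutants gave 4 libraries (trex 1 to trex 4) and wild type embryos gave 4 (wt 1 to wt 4), with no other allele or agent named. The deposited names number the wild type libraries on from the trex ones. They are renumbered 1 to 4 here in that order, so a shared number marks no given pair. Rdh10 encodes a retinol dehydrogenase of the pathway to retinoic acid, and the series compares the transcriptome of this region in mutant and wild type. Whether a sample was 1 embryo or a pool, and whether samples came from separate litters, was not given in the sources used here; a p-value therefore speaks only of the spread among the 8 samples, part of which could be technical.

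The sarcomere is the contractile unit of striated muscle. Myosin heavy and light chains form its thick filament, while actin, with the troponin complex that makes contraction depend on calcium, forms the thin filament. Titin, the Z disc and the M band hold the filaments in register. In each beat calcium enters through the L-type channel, triggers release from the sarcoplasmic reticulum and is pumped back. At this stage of mouse development the linear heart tube has looped, and the future atria, ventricles and inflow tract already differ in the light chains, peptides and channels they express. The heart lies ventral to the tissue sampled here, so a dissection can hold varying amounts of it, and in bulk RNA fewer cells of a type and less RNA per cell cannot be told apart.

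Values are TPM (transcript abundance scaled by gene length and library total), given for replicates 1 to 4 of each group in that order, and group values are means ± SD. The depth recovered from the table was 20926417 to 23645541 reads a library. Library correlations of log2(TPM + 1) were 0.964 to 0.988 within trex, 0.979 to 0.987 within wt and 0.944 to 0.981 between groups. Rdh10 itself was at 106, 66.2, 62.7 and 69.0 TPM in trex and at 41.0, 36.3, 40.3 and 37.6 TPM in wt. The trex allele is, as background, a point mutation, so this level is no check of the label. Summed Y-linked genes were at 162.3 and 157.6 TPM in wt 2 and wt 3, with no more than 0.0662 TPM elsewhere.

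Promoter windows of 4 members are shown because Tnnt2, Myl7, Mybpc3 and Nppa carry the comparisons that follow. Each is the 250 bases before the RefSeq start (GRCm38.p6), lies outside the gene's GENCODE M21 model and is written 5′ to 3′ on the gene's strand. Capitals mark a CArG box (bound by serum response factor) in Myl7, a MEF2 box in Mybpc3, the letters AGATAA read on the other strand in Tnnt2, and TATAAA in Nppa. The windows are at chr1:135836084-135836333 (plus strand, the first of the listed Tnnt2 starts), chr11:5898783-5899032 (minus strand), chr2:91117894-91118143 (plus strand) and chr4:148000472-148000721 (plus strand).
Tnnt2: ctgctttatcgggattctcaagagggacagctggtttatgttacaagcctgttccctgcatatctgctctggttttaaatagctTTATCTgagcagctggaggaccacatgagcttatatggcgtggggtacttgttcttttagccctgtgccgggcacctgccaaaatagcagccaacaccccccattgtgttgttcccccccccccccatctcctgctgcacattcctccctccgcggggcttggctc
Myl7: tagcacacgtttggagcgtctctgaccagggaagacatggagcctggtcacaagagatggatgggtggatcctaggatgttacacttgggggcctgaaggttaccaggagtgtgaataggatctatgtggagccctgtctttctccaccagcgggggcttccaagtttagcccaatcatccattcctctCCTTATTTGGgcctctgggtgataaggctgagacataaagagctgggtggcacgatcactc
Mybpc3: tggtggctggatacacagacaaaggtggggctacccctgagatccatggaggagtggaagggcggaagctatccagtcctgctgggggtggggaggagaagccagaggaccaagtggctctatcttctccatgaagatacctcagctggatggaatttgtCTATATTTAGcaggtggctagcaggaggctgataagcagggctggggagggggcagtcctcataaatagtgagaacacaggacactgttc
Nppa: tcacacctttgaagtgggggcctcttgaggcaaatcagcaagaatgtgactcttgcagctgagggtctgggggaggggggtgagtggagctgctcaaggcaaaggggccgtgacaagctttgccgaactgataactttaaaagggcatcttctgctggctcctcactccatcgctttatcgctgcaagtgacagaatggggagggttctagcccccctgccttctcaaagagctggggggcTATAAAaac
Windows were given for 27 of the 32 genes, 38 windows in all, and were searched on both strands, with no overlap between the matches to these motifs in them. A CArG box was found in 7 windows of 6 genes (Actc1, Ldb3, Myl3, Myl7, Myom1 and Nebl), where 1.47% of all 32851 windows hold one. The Ldb3 windows overlap and hold the same site, which is counted in each. The Myl7 match lies from -61 to -52 relative to the start. A MEF2 box was found in 3 windows (Mybpc3, Myoz2 and Ttn) against 2.92% of all windows. AGATAA stood in 9 windows of 8 genes against 9.99%, and TATAAA in 4 (Myl2, Nppa, Nppb and Pln) against 12.4%. These are matches of letters and show no binding.

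The level of these genes differed far more between libraries of 1 genotype than between the genotypes. Their TPM summed to 572, 628, 3077 and 3678 in trex and to 674, 1863, 1130 and 3657 in wt. The group means were 1989 ± 1622 and 1831 ± 1312 TPM (SD, n = 4 each). Within trex the highest library was 6.43 times the lowest, and within wt 5.42 times. Trex 1, trex 2 and wt 1 were low, trex 3, trex 4 and wt 4 high, and wt 2 and wt 3 lay between. As a share of all TPM the genes ran from 0.0572% in trex 1 to 0.368% in trex 4. Trex 4 held the highest level of its group for 27 of the 32 genes, and wt 4 for 28. Wt 1 held the lowest of its group for 29, while trex 1 and trex 2 held it for 16 genes each (Myoz2, at 0 in both, is counted under trex 1).

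**Figure D1:**
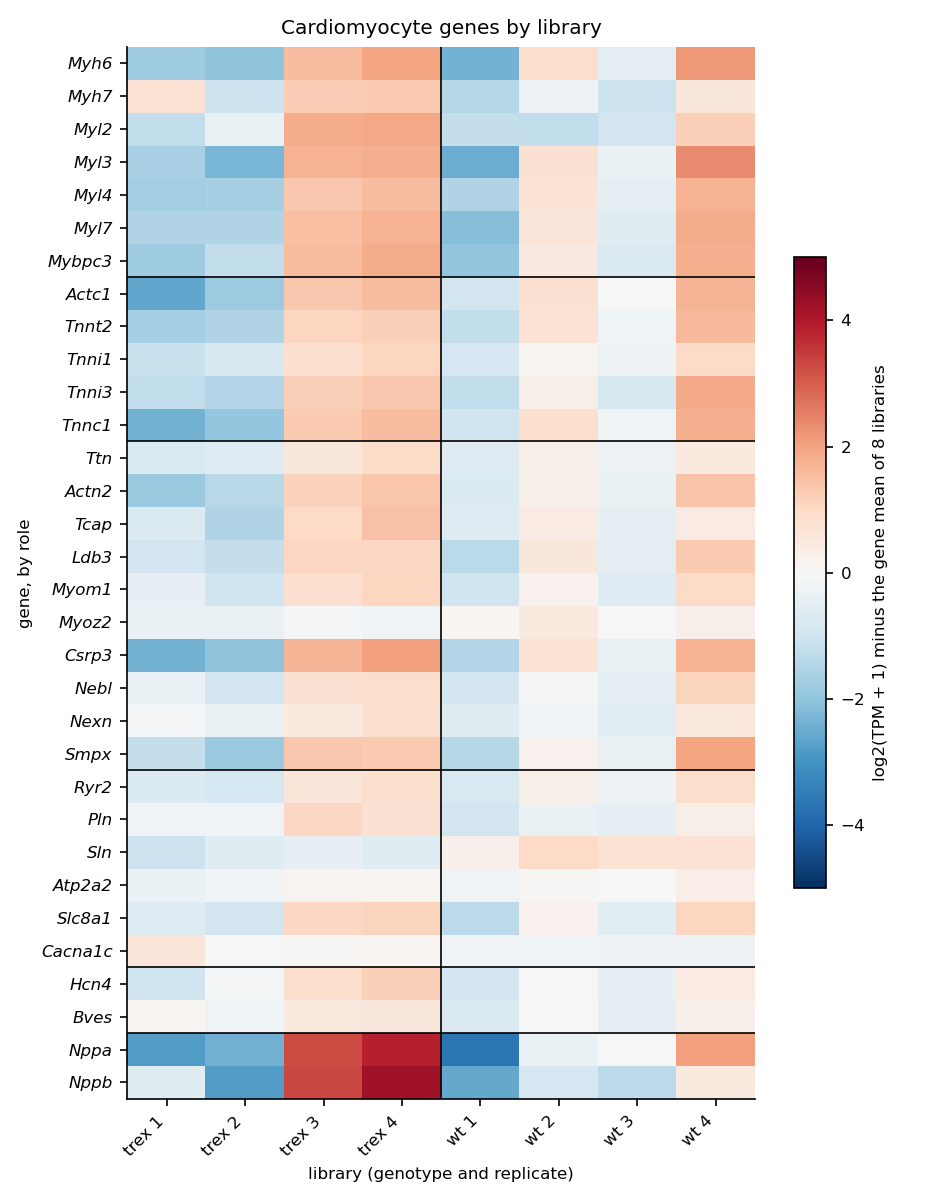
Heat map of the 32 genes (rows, ordered by role and divided by lines) in the 8 libraries (columns, trex left and wt right); colour gives log2(TPM + 1) minus the gene's mean over 8 libraries. Trex 3, trex 4 and wt 4 are red for most genes, whereas Sln is red in wt only and Cacna1c changes little.

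Tested on genotype alone, 1 of the 31 genes that passed the filter (mean TPM of at least 1) changed. Sln, which encodes sarcolipin, an inhibitor of the calcium pump known from atrial and skeletal muscle, was lower in trex, and no gene was called higher by limma (adjusted p below 0.05). At an unadjusted p below 0.05 there was 1 higher gene (Cacna1c) and 1 lower (Sln). Of all 15717 genes tested, 8.71% were called, 4.94% higher and 3.77% lower in trex, so 1 of 31 is below the background. The differences were positive for 16 and negative for 15, with a median of 0.07 on the log2 scale against 0.04 over all genes. The standard error had a median of 0.70 (range 0.13 to 1.77) over the 31 genes against 0.11 over all genes tested, and was above the latter for every one of the 31. With weights that count variable libraries less (0.139 for trex 1 and 0.392 for trex 2, 5.50 for trex 3), 9 of the 31 were called higher, as were 21.4% of all genes, and 13.8% were called lower. The 9 were Myh7, Myl2, Nexn, Pln, Cacna1c, Hcn4, Bves, Nppa and Nppb. In the unweighted fit, changes of a size that other genes would show were thus not detectable here for most of them. TPM values of the groups did not overlap for 3 of the 32 (Sln, Cacna1c and the untested Myoz2), where 21.8% of all genes tested had groups that did not overlap.

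Troponin T of the heart, Tnnt2, was at 5.72, 6.72, 45.5 and 48.7 TPM in trex and at 8.26, 35.3, 18.0 and 65.5 TPM in wt. Trex 1 and trex 2 were the lowest of the 8 libraries and wt 4 the highest, and the groups overlapped over nearly their whole range. It followed the other members closely: over the 8 libraries, 20 of the 31 others had a Pearson r above 0.9 with it on the log2 scale, as a description, since all points share their libraries. Myl4 (0.994), Tnnc1 (0.990) and Csrp3 (0.988) were highest. Cacna1c (-0.44), Sln (0.42), Myoz2 (0.56) and Myh7 (0.58) followed it least. Among genes outside the 32 with a mean of at least 5 TPM, the 10 most like Tnnt2 were Unc45b (r = 0.996), Asb2, Casq1, Apobec2, Vsnl1, Sh3bgr, Synpo2l, Nkx2-5 (0.981), Atp1b1 and Cnn1 (0.974). Unc45b encodes a chaperone of muscle myosin and Nkx2-5 a homeodomain factor of early cardiac cells; Unc45b was at 3.70, 4.60, 22.3 and 25.5 TPM in trex and at 5.94, 17, 9.15 and 29.6 TPM in wt.

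To compare the genotypes at the same Tnnt2 level, its log2 level was added to the model as a covariate. In this fit 9 of the 30 other genes tested were higher in trex (Mybpc3, Myl7, Myl4, Pln, Slc8a1, Hcn4, Bves, Nppa and Nppb) and 1 was lower (Sln). Of all genes, 7.72% were called in it, 4.54% higher and 3.18% lower. The differences were positive for 26 and negative for 4, with a median of 0.45 against 0.04 over all genes, and the median standard error was 0.17. These calls depend on the gene taken as the measure of heart tissue. With Myl7 in place of Tnnt2, Bves (0.45, limma adjusted p = 0.0362) and Pln (0.68, 0.0459) were higher, Sln (-1.35, 0.0105) and Tnnt2 (-0.56, 0.0251) were lower, and the 30 differences split into 15 positive and 15 negative. In that fit 4.97% of all genes were called higher and 3.39% lower. Of the 10 genes called at equal Tnnt2 level, 3 were called in both. None of the 30 was called at equal Tnnt2 level with the replicate number as a block. That fit called 0.102% of all genes higher and 0.134% lower, and its blocks pair libraries by order alone, marking no given batch. None was called higher at equal Tnnt2 level without trex 4, without wt 1 or without wt 2.

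**Figure D2:**
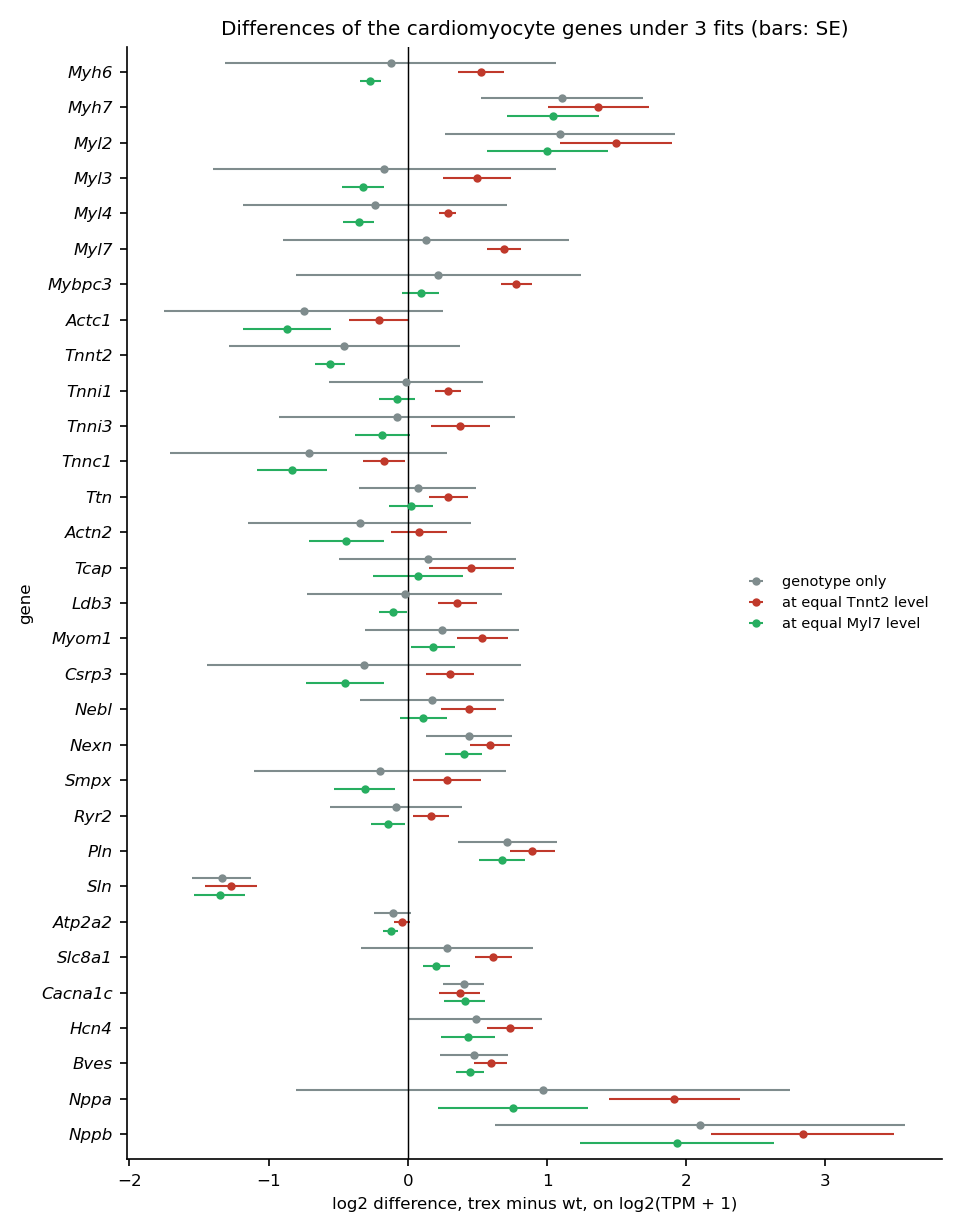
Log2 difference (trex minus wt, on log2(TPM + 1)) of each gene tested, as a point with its standard error as a bar, from 3 fits: genotype only (grey), with the Tnnt2 level as covariate (red) and with the Myl7 level as covariate (green). Grey bars are the widest for most genes, red points lie mostly right of 0, green points lie on both sides, and Sln is left of 0 in all 3.

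Among thick filament genes, 0 of 7 were called on genotype alone and 3 of 7 were higher at equal Tnnt2 level. Over all genes 8.71% were called on genotype alone, and 4.54% were higher at equal Tnnt2 level. Myl7, the light chain that in the adult marks the atria and in the early tube is widespread, was at 92.9, 91.0, 754 and 887 TPM in trex and at 59.6, 402, 174 and 949 TPM in wt. Per unit of Tnnt2 its TPM was 16.2, 13.5, 16.6 and 18.2 in trex and 7.21, 11.4, 9.67 and 14.5 in wt, so only wt 4 reached the trex range. At equal Tnnt2 level Myl7 was 0.69 ± 0.12 (SE) higher on the log2 scale (limma adjusted p = 0.0203). Mybpc3, cardiac myosin binding protein C, was at 4.00, 6.22, 49.1 and 60.9 TPM in trex and at 3.31, 22.1, 9.34 and 58.0 TPM in wt. Its trex libraries lie above the line that the wt libraries follow against Tnnt2, and its difference there was 0.78 ± 0.11 (adjusted p = 0.0115). At equal Myl7 level the Mybpc3 difference was 0.09 (limma adjusted p = 0.65) and was not called. Myl4, the atrial essential light chain, was at 12.5, 13.3, 113 and 130 TPM in trex against 14.8, 70.2, 31.5 and 150 TPM in wt. It had the smallest of the called rises, 0.29 ± 0.06 (adjusted p = 0.0331), and at equal Myl7 level its difference was -0.35.

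Myh6, the fast alpha heavy chain of the adult mouse heart, and Myh7, the slow beta chain of the fetal ventricle, are encoded 3756 bases apart on chromosome 14 (mm10; Myh6 54941921 to 54966927, Myh7 54970684 to 54994626, both on the minus strand). Myh6 was at 8.71, 7.13, 96.2 and 129 TPM in trex and at 5.47, 59.1, 23.0 and 149 TPM in wt, and so followed the other sarcomere genes. Myh7 was at 22.9, 6.13, 33.0 and 35 TPM in trex and at 4.40, 10.9, 5.94 and 20.7 TPM in wt. Trex 1, low for most of the 32 genes, was above all 4 wt libraries for Myh7. The Myh7 difference was 1.11 ± 0.58 on genotype alone (limma adjusted p = 0.240) and 1.37 ± 0.36 at equal Tnnt2 level (adjusted p = 0.0601), so it was not called. Without trex 2 it was called on genotype alone, at 1.64 (adjusted p = 0.0416). In every other fit on genotype alone that left out 1 library it was not called (limma adjusted p = 0.172 to 0.428). The 2 genes are close in sequence, and how reads that fit both were counted is not given in the sources used here.

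Myl2 and Myl3, the ventricular light chains, were not called in either fit. Myl2 was at 0.356, 1.43, 10.4 and 11.2 TPM in trex and at 0.378, 0.362, 0.615 and 6.27 TPM in wt. Trex 3, trex 4 and wt 4 stand apart from the other 5 libraries, and wt 2, which held 35.3 TPM of Tnnt2, held no more Myl2 than wt 1. The Myl2 difference at equal Tnnt2 level was 1.5 ± 0.40 (limma adjusted p = 0.0613). Myl3 was at 3.14, 1.61, 40.9 and 43.6 TPM in trex and at 1.26, 20.7, 8.97 and 64.8 TPM in wt, with groups that overlap throughout.

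No thin filament gene changed in either fit (0 of 5 on genotype alone and 0 of 4 beside Tnnt2). Actc1, the cardiac actin that is also made in embryonic skeletal muscle, was the most abundant of the 32 in 5 libraries, at 59.4, 102, 920 and 1096 TPM in trex and at 191, 614, 355 and 1183 TPM in wt. Tnnc1, the troponin C of heart and slow muscle, was at 10.2, 14.0, 141 and 163 TPM in trex against 27.4, 97.4, 49.0 and 201 TPM in wt. These 2 genes were lowest in trex 1 and trex 2, below wt 1, and had negative differences in both fits (-0.75 and -0.71 on genotype alone, -0.21 and -0.17 at equal Tnnt2 level). Without trex 1 the differences on genotype alone were -0.0077 and -0.049. Tnni1, the slow skeletal troponin I that the embryonic heart uses, spanned 22.4 to 106 TPM in trex and 27.6 to 97.8 TPM in wt. Tnni3, the cardiac troponin I that replaces it later, was lower in every library, at 2.27 to 22.0 TPM in trex and 2.85 to 32 TPM in wt. Actin genes are close in sequence to each other, and the same limit on shared reads applies to Actc1.

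None of the 9 tested genes of titin, the Z disc and the M band changed in either fit. Titin itself (Ttn) was at 0.694, 0.795, 3.12 and 4.19 TPM in trex and at 0.767, 2.40, 1.28 and 2.89 TPM in wt. Csrp3, the muscle LIM protein, spanned the widest range of the 9 on log2(TPM + 1), at 0.974, 1.5, 31.6 and 40.5 TPM in trex and at 2.62, 15.8, 6.80 and 32.5 TPM in wt. Actn2 (the Z disc actinin), Ldb3 (a Z disc LIM protein), Smpx and Tcap (the titin cap) were at 0.183 to 23.6 TPM in trex and 0.890 to 24.8 TPM in wt. Myom1 (myomesin of the M band) and Nebl (nebulette) spanned 2.24 to 14.7 TPM in trex and 2.25 to 17.3 TPM in wt. Nexn, an actin-binding protein of the Z disc, was at 23.2, 18.4, 33.8 and 42.6 TPM in trex and at 15.5, 20.6, 15.7 and 34.8 TPM in wt, the narrowest range of the 9 on that scale. Its difference at equal Tnnt2 level was 0.59 ± 0.15 (limma adjusted p = 0.0506). Myoz2, a calcineurin-binding Z disc protein, fell below the filter, with 0, 0, 3 and 3 reads in trex and 6, 15, 5 and 10 in wt.

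Calcium handling held the gene that changed on genotype alone. Sln (chr9:53850164-53854560, plus strand, mm10) was at 0, 0.396, 0.572 and 0.388 TPM in trex and at 1.54, 3.21, 2.34 and 2.48 TPM in wt, from 0, 3, 4 and 3 reads and 11, 24, 18 and 19 reads. Every wt library was above every trex library, those with high Tnnt2 included. The means were 0.339 ± 0.241 and 2.39 ± 0.687 TPM (SD, n = 4 each), 7.06-fold lower in trex, and the log2 difference was -1.34 ± 0.21 (SE; limma adjusted p = 0.0121). At equal Tnnt2 level it was -1.27 (adjusted p = 0.0119). The call on genotype alone ended without wt 2 (adjusted p = 0.0517) and that at equal Tnnt2 level without trex 4 (0.0766). With so few reads the difference depends on the pseudocount, at -2.76 with 0.1 and -0.47 with 5 in place of 1. Skeletal muscle, which also makes sarcolipin, was marked by a list of 23 genes, chosen with earlier results of these data known. Of 17 tested, 8 were lower and none higher in trex, where 3.77% of all genes were called lower. That list summed to 60.8 to 142 TPM in trex and 238 to 323 TPM in wt, with Mymk and Chrna1 at 0 in some library, and its part in the Sln result was not tested.

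Pln, phospholamban, the related pump inhibitor of the ventricle, had a difference of the other sign. It was at 0.754, 0.756, 3.14 and 2.35 TPM in trex and at 0.0667, 0.575, 0.435 and 1.43 TPM in wt, from 1 to 23 reads a library in wt and 12 to 46 in trex. The groups overlap through wt 4 only. At equal Tnnt2 level it was 0.89 ± 0.16 higher in trex (limma adjusted p = 0.0203), and per unit of Tnnt2 the groups did not overlap (0.0482 to 0.132 in trex, 0.00807 to 0.0242 in wt). Groups also did not overlap per unit of Tnnt2 for Slc8a1, for Myh7 and Ldb3, which were not called, and for the untested Myoz2, lower in trex. The share of all genes without overlap on this measure was not computed. The Pln difference depends on the pseudocount too, at 1.86 with 0.1 and 0.31 with 5. Slc8a1, the sodium-calcium exchanger, was at 6.30, 4.83, 21.8 and 23.5 TPM in trex and at 3.58, 12, 6.69 and 22.8 TPM in wt. Its difference at equal Tnnt2 level was 0.61 ± 0.13 (adjusted p = 0.0344).

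The pump gene Atp2a2 and the release channel gene Ryr2 did not pass the test in either fit. Atp2a2, which non-muscle cells express too, was at 245, 281, 337 and 338 TPM in trex and at 271, 322, 313 and 388 TPM in wt, a 1.58-fold range over the 8 libraries. In trex 1, trex 2 and wt 1 it was the most abundant of the 32. Ryr2 was at 1.09, 0.863, 4.13 and 4.90 TPM in trex and at 0.997, 3.18, 1.86 and 5.25 TPM in wt. Cacna1c, the pore subunit of the L-type channel, was at 6.90, 4.28, 4.35 and 4.51 TPM in trex and at 3.57, 3.64, 3.35 and 3.37 TPM in wt. It did not follow Tnnt2, and every trex library was above every wt library. Its log2 difference was 0.40 ± 0.15 (limma adjusted p = 0.118), which is not a call, and it was 0.26 without trex 1.

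Of the pacemaking and conduction genes, both were higher at equal Tnnt2 level and neither on genotype alone. Over all genes 4.54% were called higher at equal Tnnt2 level and 4.94% on genotype alone. Hcn4, the pacemaker channel that marks the inflow tract and sinus node and, early, the first heart field, was at 6.66, 13.0, 26.7 and 33.8 TPM in trex and at 6.77, 14.1, 10.3 and 19.3 TPM in wt. Trex 3 and trex 4 exceeded wt 4, which held more Tnnt2 than either. The difference at equal Tnnt2 level was 0.74 ± 0.17 (limma adjusted p = 0.0385). The Hcn4 call ended in 6 of the 8 fits that left out 1 library. At equal Myl7 level its difference was 0.43 (adjusted p = 0.18) and was not called. Bves, a Popeye domain protein of muscle membranes, was at 13.3, 10.1, 17.3 and 18.5 TPM in trex and at 6.95, 11.7, 8.66 and 14.6 TPM in wt, with a difference of 0.59 ± 0.12 (adjusted p = 0.0274). The Bves call ended in 5 of those 8 fits, and Bves stayed called at equal Myl7 level (0.45, adjusted p = 0.0362).

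The natriuretic peptides spanned the widest range of the 32. Nppa (chr4:148000722-148002079) and Nppb (chr4:147985788-147987205), both on the plus strand of mm10, lie 13516 bases apart and encode the atrial and the B-type hormone, which in the embryo mark the working myocardium of the forming chambers. Nppa was at 0.802, 1.41, 121 and 184 TPM in trex and at 0, 8.97, 11.9 and 50.9 TPM in wt. Nppb was at 4.66, 0.222, 86.7 and 162 TPM in trex and at 0.471, 3.84, 2.41 and 11.0 TPM in wt. Trex 3 and trex 4 stood above every wt library for both genes, and trex 1 and trex 2 lay within the wt range or, for Nppb in trex 2, below it. Per unit of Tnnt2, Nppb was at 1.91 and 3.33 in trex 3 and trex 4, at 0.814 and 0.0331 in trex 1 and trex 2, and at 0.0570 to 0.168 in wt. Its value in trex 2 rests on 1 read, and those in wt on 2 to 50 reads.

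On genotype alone neither peptide gene was called, with log2 differences of 0.97 ± 1.77 for Nppa (limma adjusted p = 0.740) and 2.10 ± 1.47 for Nppb (0.364). Leaving out 1 library moved the Nppb difference between 1.03 (without trex 4) and 3.39 (without trex 2). At equal Tnnt2 level they were 1.92 ± 0.47 (adjusted p = 0.0488) and 2.84 ± 0.66 (0.0424). The Nppb difference is the largest of the 30, and its call ended in 6 of the 8 fits that left out 1 library. For Nppa the call ended in 5 of the 8. With a pseudocount of 0.1 neither was called (adjusted p = 0.0772 for Nppa and 0.0837 for Nppb), and with 5 Nppa was not (0.0590).

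**Figure D3:**
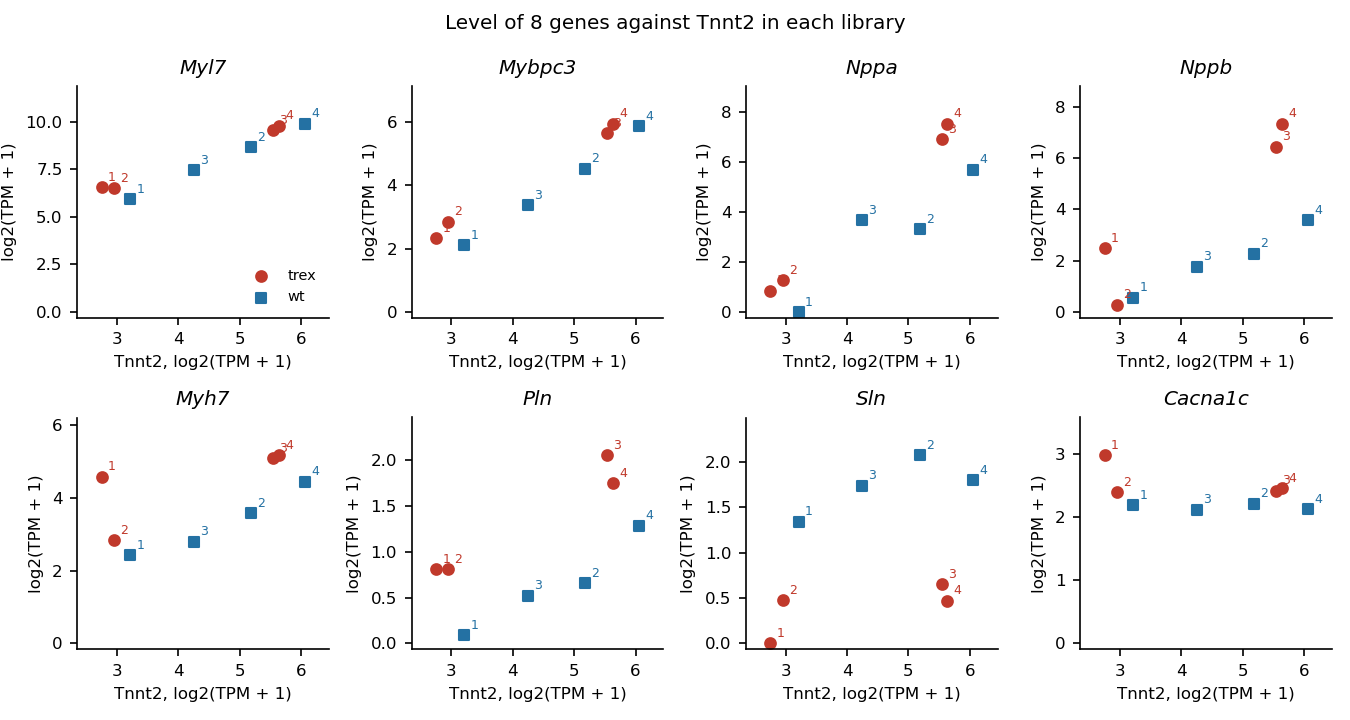
Level of 8 genes (vertical axes, log2(TPM + 1)) against that of Tnnt2 (horizontal axes, same scale) in the 4 trex (red circles) and 4 wt (blue squares) libraries, numbered by replicate. Myl7 and Mybpc3 rise with Tnnt2 in both groups; trex 3 and trex 4 stand above wt 4 for Nppa and Nppb; the trex points lie below the wt points for Sln and above them for Cacna1c.

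Ratios of gene pairs in each library were used to look at chamber and maturation differences. They were not free of the heart level: within each genotype Hcn4/Tnnt2 and Myh7/Myh6 were lowest in the 2 libraries with the most Tnnt2. None of the 7 ratios differed after adjustment. The exact permutation test of 4 against 4 libraries cannot go below p = 0.0286, and 1 ratio alone at that value has an adjusted p of 0.2. Only Sln/Pln had groups that did not overlap, with TPM ratios of 0, 0.523, 0.182 and 0.165 in trex and 23.0, 5.58, 5.38 and 1.73 in wt (exact two-sided permutation p = 0.0286, adjusted over the 7 ratios 0.2). The 23.0 of wt 1 rests on 1 Pln read, and the trex ratios on 0 to 4 Sln reads. This ratio holds Sln, already called on genotype alone and also made by skeletal muscle, so it is no separate result on chambers.

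The ventricular to atrial ratio Myl2/Myl7 was 0.00383, 0.0157, 0.0137 and 0.0126 in trex and 0.00634, 0.000900, 0.00354 and 0.00660 in wt, with trex 2, trex 3 and trex 4 above all wt libraries. That order does not hold on log2(TPM + 1), the scale tested, where wt 1 (-5.46) lay above trex 1, trex 3 and trex 4 (-6.19 to -6.06). Myl2 had only 4 reads in each of trex 1, wt 1 and wt 2. On log2(TPM + 1) the difference was 0.96 (exact permutation p = 0.171, adjusted 0.35); it was 0.52 without wt 2, 1.46 with a pseudocount of 0.1 and 0.43 with 5. Myh7/Myh6 was 2.63, 0.860, 0.343 and 0.271 in trex and 0.804, 0.184, 0.258 and 0.139 in wt. It was highest in the libraries with the least Tnnt2 of each group, and the difference of 1.23 did not pass (exact permutation p = 0.2, adjusted 0.35) and was 0.61 without trex 1. Nppa/Tnnt2 was 0.140, 0.209, 2.66 and 3.79 in trex and 0, 0.254, 0.661 and 0.777 in wt, a split within trex that left the groups overlapping (exact permutation p = 0.286, adjusted 0.4). Hcn4/Tnnt2 spanned 0.586 to 1.94 in trex and 0.295 to 0.819 in wt (difference 0.94, exact permutation p = 0.114, adjusted 0.35). Myl3/Myl4 and Tnni3/Tnni1 differed by 0.07 and -0.07, with an adjusted exact permutation p of 0.886 for each.

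**Figure D4:**
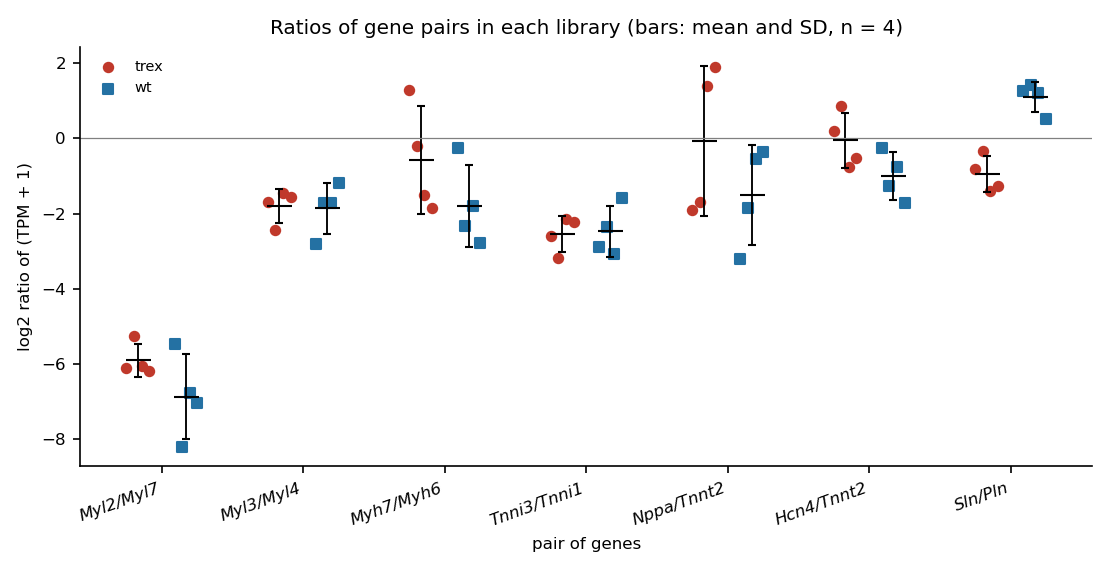
Log2 ratio of (TPM + 1) for 7 gene pairs (horizontal axis) in each trex (red circles) and wt (blue squares) library, with the mean and SD of each group (n = 4) as black bars. The groups overlap for 6 pairs, and Sln/Pln lies below 0 in all trex and above 0 in all wt libraries.

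Other heart genes were read from further lists. Of 20 cardiac transcription factors, 3 were higher and none lower in trex: Hand1 (63.3 ± 40.0 against 9.56 ± 3.71 TPM, limma adjusted p = 0.0328), Hand2 (74.6 ± 19.0 against 36.8 ± 10.8, 0.0345) and Nr2f2 (1.15-fold, 0.0312). Hand1 and Hand2 are bHLH factors of the heart and of lateral mesoderm, and Nr2f2 is an atrial and venous nuclear receptor made in many other tissues too. At equal Tnnt2 level 6 of the 20 were higher. Over all genes the shares called higher were 4.94% and 4.54%, and on genotype alone 3.77% were called lower. Of 17 further cardiomyocyte genes tested, 1 was lower: Casq2, calsequestrin, was at 0.190, 0.826, 1.17 and 0.934 TPM in trex and at 2.83, 4.71, 3.44 and 3.02 TPM in wt (4.48-fold lower, adjusted p = 0.0126). Its groups did not overlap, and skeletal muscle makes it as well. Des (39.8 ± 10.5 against 40.2 ± 8.60 TPM) and Pdlim5 (32.3 ± 5.66 against 30.7 ± 4.08 TPM) were the most abundant of that list and were not called. Of 13 ion channels and connexins tested, Kcnh2, a repolarizing potassium channel, was lower (25.3 ± 8.34 against 44.3 ± 3.72 TPM, adjusted p = 0.0488), and Gja1 and Gjc1 were not called (adjusted p = 0.155 and 0.806).

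In the skeletal muscle list Mylpf, the fast light chain, was at 12.1, 13.1, 17.2 and 15.4 TPM in trex and at 54.8, 73.6, 63.7 and 59.3 TPM in wt (limma adjusted p = 0.000225), and Atp2a1 (2.33-fold), Myf6 (3.59-fold) and Myh3 (8.70-fold) were lower as well. Of 10 second heart field genes, 1 was higher, Bmp4 (90.2 ± 10.4 against 54.8 ± 4.19 TPM), and 2 were lower. The lower ones were Osr1 (18.3 ± 3.42 against 29.8 ± 3.17) and Isl1 (26.8 ± 2.58 against 37.2 ± 4.14). The median log2 difference of the 10 was 0.03, and over all genes 4.94% were called higher and 3.77% lower. Of the endocardial and endothelial list of 9, Cdh5 (109 against 84.7 TPM) and Tek (45.8 against 31.4) were higher and Klf2 (5.91 against 11.8) lower. Sema3d (20.5 against 15.5 TPM) was the 1 call of 7 proepicardial genes, and Mylk (8.19 against 5.15 TPM) that of 7 smooth muscle genes tested. Both were called higher, as were 4.94% of all genes. None of 6 primitive erythroid and 7 liver bud genes was called by limma, the liver list summing to 9.28 to 463 TPM in trex and 4.66 to 175 TPM in wt, with Alb at 0 in some library.

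In a low oxygen list, chosen with earlier results of these data known, 6 of 9 genes were higher in trex and none lower. Over all genes 4.94% were called higher, but given that choice the count is no independent test. The summed level of the list was 3408 to 7859 TPM in trex, highest in trex 1, and 2467 to 2633 TPM in wt. Bnip3, a mitophagy receptor, was at 458, 119, 245 and 364 TPM in trex and at 62.3, 78.8, 62.2 and 61.5 TPM in wt. Ldha, Egln3 and Pdk1 were higher too (1.74-fold, 5.66-fold and 3.07-fold). Mitochondrially encoded transcripts were 2.61% to 7.14% of TPM in trex, lowest in trex 1, and 6.73% to 7.95% in wt. The part of these differences in the results at equal Tnnt2 level was not tested.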

How the data were processed

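The authors deposited 1 table of TPM with a column for each of the 8 samples, each summing to 1000000. Libraries were poly-A selected and strand-specific, per the labels' protocols. CASAVA 1.8.2, STAR and the mm10 build are listed per the submitters' processing notes. Nothing used here names the read counter, its treatment of shared reads or the annotation. Symbols, coordinates and exonic lengths came from GENCODE M21, and 55154 of 55421 genes had a symbol. Low TPM values (under 200 reads) times length were whole reads within 0.001 read for 98.7% to 98.9% of values, which gave the depth and the read numbers quoted. TPM fixes no absolute amount: a gene's value depends on all others in its library.

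limma 3.58.1 in R 4.3.3 (eBayes with trend) was run on log2(TPM + 1) for 15717 genes with a mean TPM of at least 1, two-sided, with Benjamini-Hochberg adjustment over all of them and calls at an adjusted p below 0.05. Adjusted p-values of single genes all come from this tool. A further fit added the Tnnt2 level as a covariate. Log2 differences understate changes of weakly expressed genes. Ratios of pairs were tested with an exact two-sided permutation test over samples. On simulated data for this comparison (15717 genes), genotype alone recovered 50% of genes with a true log2 change of 0.5 and 92% at 1. The changed genes were drawn from outside the members and above a set wt level, so these shares do not cover weakly expressed genes. Of 8 members raised by 1 on a shared heart signal genotype alone recovered 0, and the fit with Tnnt2 recovered 7. The simulated members followed Tnnt2 by construction, whereas real ones did so less closely (r = -0.44 for Cacna1c). The simulation therefore does not show how well the Tnnt2 fit works on these genes.

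Samples were grouped by the genotype label. The members and lists were chosen with earlier results of these data known. The rule named all 32 members, up to 4 called genes of each other list with the smallest p (and the 2 most abundant where fewer than 2 were called), and the 10 other genes most like Tnnt2. Alternatives were other pseudocounts, filters, scalings and eBayes settings, array weights, a block on the replicate number, other covariates, the 6 libraries with low Y-linked sums and leaving out each library.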

Additional observations from a re-analysis of the deposited data

Results flagged for a closer look

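Of 80 sets of 4 libraries (the 32 genes and the 7 ratios in each group, with the summed level), 3 held a library set apart from the other 3 by most of the set's range. Chance sets apart about 1 in 20, and here it was 3.75%. Myl2 was at 6.27 TPM in wt 4, against 0.362 to 0.615 TPM in the other wt libraries. Cacna1c was at 6.90 TPM in trex 1, against 4.28 to 4.51 TPM in the other trex libraries. The Myl2/Myl7 ratio of (TPM + 1) was -5.25 on the log2 scale in trex 2, against -6.19 to -6.06 in the other trex libraries.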

How the results depend on the processing

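Sln kept its direction under every alternative that tested it, from -1.47 to -1.20 when 1 library was left out. Leaving out 1 library turned the sign of the genotype difference for 19 of the 31 members tested. With array weights 9 members were higher (0 without), as were 21.4% of all genes. Those weights were 5.50 for trex 3 against 0.139 to 0.91 for the other trex libraries. The weighted trex level therefore rests mostly on trex 3, a library high in these genes. Differences turned positive for Myh6 (1.11), Myl3 (1.18), Myl4 (0.93), Actc1 (0.66), Tnnt2 (0.58), Tnni1 (0.67), Tnni3 (0.94), Tnnc1 (0.66), Actn2 (0.80), Ldb3 (0.76), Csrp3 (1.18), Smpx (0.96), Ryr2 (0.42) and Atp2a2 (0.038). Members lower came to 0 at a filter of 5 TPM and over the 6 libraries with low Y-linked sums, where Sln was below the filter; over those 6 Myh6 was at 0.022 and Ldb3 at 0.022. Signs near 0 also turned for Tnni1 (0.00079, pseudocount 5), Tcap (-0.14, pseudocount 0.1) and Ttn (-0.0095, quantile normalization).

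Leaving out 1 library gave 0 to 1 members higher (Myh7 without trex 2) and 0 to 1 lower (0 without wt 2). Differences then ranged from -0.93 to 0.59 for Myh6, -1.02 to 0.60 for Myl3, -0.79 to 0.31 for Myl4, -0.56 to 0.77 for Myl7, -1.40 to -0.0077 for Actc1, -1.34 to -0.049 for Tnnc1, -0.40 to 0.86 for Mybpc3, -0.94 to 0.034 for Tnnt2, -0.37 to 0.36 for Tnni1 and -0.54 to 0.53 for Tnni3. They ranged from -0.22 to 0.32 for Ttn, -0.86 to 0.21 for Actn2, -0.33 to 0.67 for Tcap, -0.48 to 0.41 for Ldb3, -0.070 to 0.63 for Myom1, -1.05 to 0.42 for Csrp3, -0.12 to 0.57 for Nebl and -0.70 to 0.42 for Smpx. Ryr2 ranged from -0.37 to 0.20, Slc8a1 from -0.10 to 0.69 Nppa from -0.16 to 2.07, Nppb from 1.03 to 3.39, Hcn4 from 0.17 to 0.90 and Myl2 from 0.63 to 1.68. The log2 ratios ranged from -0.25 to 0.29 for Myl3/Myl4, -0.27 to 0.23 for Tnni3/Tnni1, 0.52 to 1.43 for Myl2/Myl7, 0.61 to 1.74 for Myh7/Myh6, 0.77 to 2.03 for Nppa/Tnnt2 and 0.64 to 1.19 for Hcn4/Tnnt2.

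At equal Tnnt2 level, leaving out 1 library gave 0 to 15 members higher (14 without trex 1, 15 without trex 2, 2 without trex 3 or wt 3, 0 without trex 4, wt 1 or wt 2), where the share of all genes called higher was 9.32%, 17.6%, 0.777%, 1.0%, 0.229%, 0.643% and 0.693% in that order, and 0 to 1 lower (0 without trex 4). With Myl7 as the covariate 2 were higher and 2 lower, and with the mean of Tnnt2, Myl7, Myh6 and Nppa 1 higher and 2 lower; Myl4 was then at -0.35 and -0.34. The replicate block gave 0 higher and 0 lower at equal Tnnt2 level, and on genotype alone 0 higher and 1 lower (Sln, -1.34). The block pairs libraries by order alone, as the deposited names share no number between genotypes. Deviations of same-numbered libraries correlated at 0.162, -0.0225, -0.00449 and 0.252, and the numbers were not taken as pairs. Depth limits Sln, Pln, Myl2, Tcap and Myoz2, which rest on few reads in most libraries, and the low values of Nppa and Nppb. Nppb had 21, 1, 359 and 743 reads in trex and 2, 17, 11 and 50 in wt. Nppa had 4, 7, 555 and 937 reads in trex and 0, 44, 60 and 256 in wt. The cause of these changes was not tested.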
